A study of Mus musculus with 6 samples.

Results

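The cytosolic ribosomal proteins are the protein components of the ribosome that translates messenger RNA in the cytoplasm. In the RNA-seq data described here, 79 of the 13003 genes listed were taken as cytosolic ribosomal proteins from their symbols alone: every symbol made of Rpl or Rps and a number, with at most 1 of a few suffix letters, together with *Rplp0*, *Rplp1*, *Rplp2* and *Rpsa*. *Rpl3*, *Rpl3l* and the *Rps6k* kinases were left out. Of the 79 genes, 31 encode proteins of the small subunit, 44 encode proteins of the large subunit and 4 are paralogues or copies of another member (*Rpl22l1*, *Rpl7l1*, *Rps27l* and *Rps4y2*). *Rpl11* was not analysed here.

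The libraries came from ventricular myocardium of 3 WT mice and 3 *Dst-b* mutant mice, aged 14 to 19 months, with 1 library per mouse. The mutants were homozygous for the *Dst-b* allele E2610Ter, a nonsense mutation made with CRISPR-Cas9 on a C57BL/6J background in an exon used only by the muscle isoform of dystonin, a giant protein that links parts of the cytoskeleton, and they were obtained by crossing heterozygotes. The mutation is constitutive, so every cell type of the heart carries it, and the study used several lines and both sexes without giving the line or sex behind a library. The question for these genes was whether the mRNAs of the translation machinery differed between mutant and WT hearts.

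A ribosome has a small subunit, which reads the mRNA, and a large subunit, which joins the amino acids. Each ribosomal protein is normally present once per ribosome, the proteins of the P stalk being the exception, and the cell therefore keeps the supply of the different proteins in balance. Their mRNAs begin with a run of pyrimidines at the cap, known as the TOP motif, through which the kinase mTOR regulates their translation. Mammalian genomes also carry many processed pseudogenes of ribosomal proteins, which are near copies of the mRNAs.

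Depth ranged from 40693854 to 57580110 tags per library, a tag being the unit counted by the authors. Levels are given as CPM, in which the tags of each gene are set against the TMM-scaled size of the library. The 8 markers of ventricular cardiomyocytes examined, which define the labelled tissue, were abundant, with means of 1698 to 28006 CPM. Tags of *Dst* were 448 ± 25.2 CPM in WT against 430 ± 24.1 CPM in mutant hearts (mean ± SD, n = 3 each; log2 fold change −0.06, SE 0.07), and a count over the whole gene is no check of a nonsense allele of 1 isoform. WT replicate 3 stood apart from the other WT libraries in markers of other cells. Of the 4 atrial cardiomyocyte markers tested, *Myl4* was 241 CPM in WT replicate 3 against 56.8 and 62.8 in WT replicates 1 and 4 and 32.9 to 136 in mutant libraries, and *Myl7* was 144 CPM against 48.7 and 58.1 and 13.9 to 88.6. *Sln* followed at 35.3 CPM against 6.30 and 9.25 and 3.63 to 22.0. *Nppa*, which stressed ventricles also express, was 671 CPM against 119 and 144, but was 639 to 926 in mutant libraries. The 5 epicardial markers summed to 72.4 CPM in WT replicate 3, 24.2 and 38.5 in the other WT and 19.2 to 29.7 in mutant libraries, and the 2 erythroid markers tested to 174, 25.9 and 72.5 and 61.6 to 136. Summaries over the members are given also without this library, and the part of these cells in them was not tested. *Eif2s3x*, a gene of the X chromosome, was 33.5 CPM in mutant replicate 2 and 16.0 to 19.9 CPM in the other libraries. The paper excluded *Xist*, *Tsix* and *Bmp10* for outliers in 1 individual, which it does not name. The part of sex in the members' values was not tested.

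The sequences at the starts of these genes are given here as description. The likeness of copies, which may bear on what could be counted, is given further below. The 6 stretches below run from 15 bases before to 15 bases from the annotated start of transcription of 6 members in which CTCTTTC, a pyrimidine run of the TOP type, lay wholly within that stretch on the transcribed strand. They are shown because a pyrimidine start is the best known shared feature of these mRNAs, and capitals mark the motif. It begins at the annotated start in *Rpl28*, *Rpl35* and *Rpl35a* only. In *Rpl18* and *Rps26* it begins after that start, and in *Rps15a* it lies wholly before it. The sequences are from RefSeq on build GRCm38.p6, 5′ to 3′ as transcribed.
*Rpl18*, chr7:45718056-45718085, plus strand: tgcgtctcgcaggccgCTCTTTCcccgccc
*Rpl28*, chr7:4792950-4792979, plus strand: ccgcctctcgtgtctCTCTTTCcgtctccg
*Rpl35*, chr2:39005117-39005146, minus strand: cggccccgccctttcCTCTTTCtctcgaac
*Rpl35a*, chr16:33056467-33056496, plus strand: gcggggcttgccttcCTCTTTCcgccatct
*Rps15a*, chr7:118116133-118116162, minus strand: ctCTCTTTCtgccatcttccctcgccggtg
*Rps26*, chr10:128626492-128626521, minus strand: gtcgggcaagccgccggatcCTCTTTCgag

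RefSeq promoter windows, from 250 bases before to 50 after a start, were at hand for 59 of the 79 genes. CTCTTTC was found on the transcribed strand in 12 of the 59 member genes (20.3%), against 4.60% of all 27025 genes with a window. On either strand it was found in 28.8% of the members and 9.28% of all genes. CCGGAAG, the core bound by ETS factors, was found on either strand in 40.7% of the members and 9.93% of all genes. The letters TATAAA of many core promoters were found on either strand in 11.9% of the members and 15.7% of all genes. These are matches of letters only, each motif was counted on its own, and matches of different motifs can share bases.

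The measured levels of the 79 mRNAs covered a wide range. Per kb of exon length, the highest mean over the 6 libraries was 1219 CPM per kb for *Rps14*, a protein of the small subunit platform. It was followed by 1146 CPM per kb for *Rplp1*, a P stalk protein, and 1040 CPM per kb for *Rpl36*, a large subunit protein. At the low end stood *Rps12* with 3.65, *Rps27* with 3.89 and *Rpl10a* with 4.82 CPM per kb, although each of them also encodes a protein of the ribosome. In the plot of levels by gene and library, the values of a gene in the 6 libraries lay close together against the spread between genes.

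**Figure D1:**
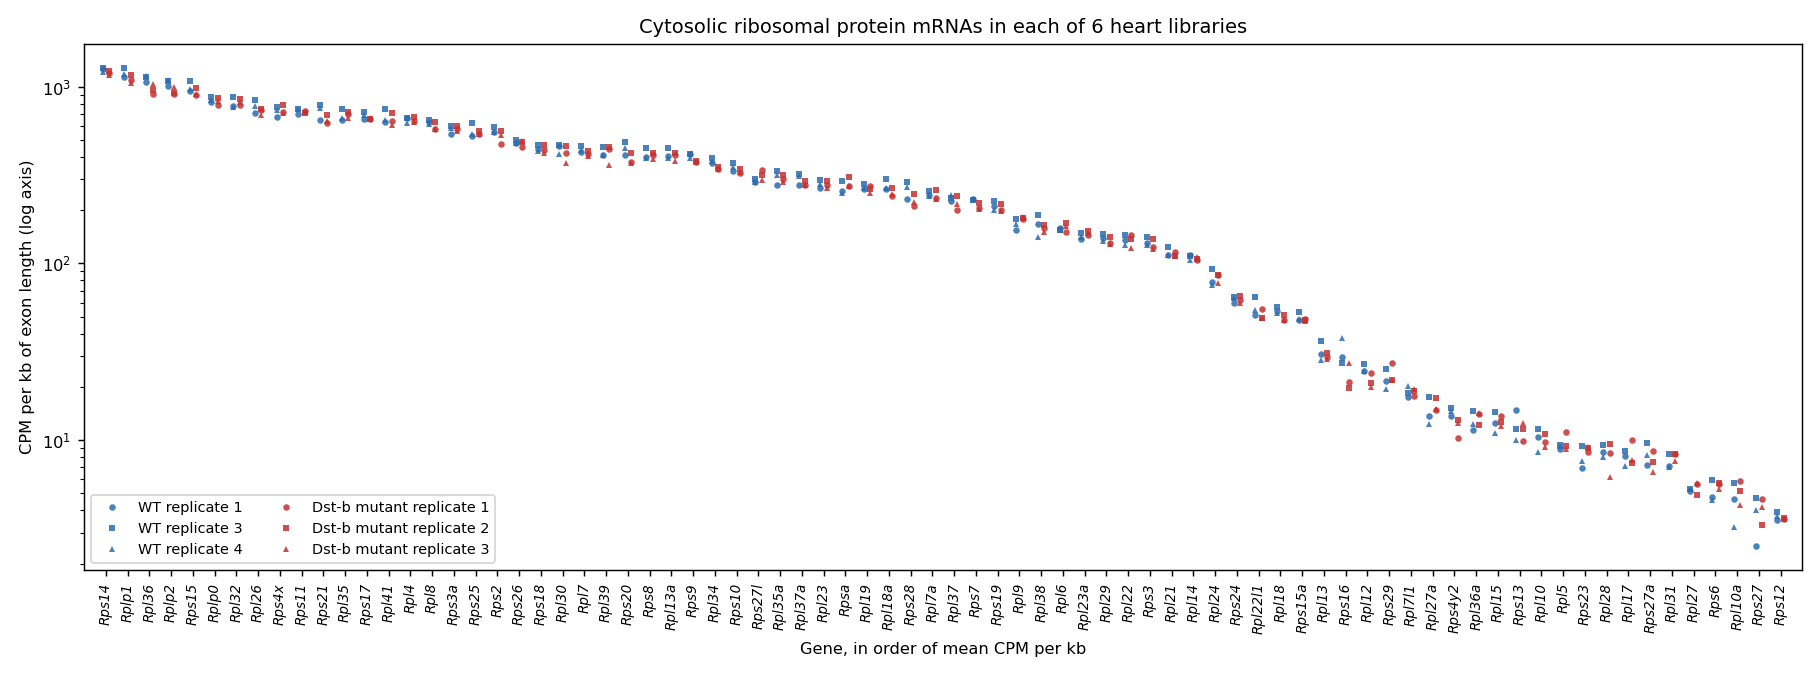
Level of 78 of the 79 cytosolic ribosomal protein mRNAs in each of 6 heart libraries, as CPM per kb of exon length on a log axis, with genes in order of their mean. Blue points are WT and red points *Dst-b* mutant libraries, with 1 marker shape per library. Levels fall from 1219 for *Rps14* to 3.65 for *Rps12*, and blue and red points of a gene mostly intermingle.

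Low levels went together with coding sequence that another annotated gene also carries. For the 78 members with a coding sequence in the GENCODE annotation, every stretch of 50 bases was looked up in the transcripts of all other genes. All stretches were shared for 26 members, whose median mean level was 14.1 CPM per kb. The medians were 260 CPM per kb for the 16 members with 90% to under 100% shared, 420 for the 24 members with 50% to under 90% shared and 630 for the 12 members with less than 50% shared. Of the 21 members with a coding sequence and a mean under 50 CPM, 18 had every stretch shared. Across the 78 genes, which are not independent replicates and share the same libraries, Spearman's rho of level per kb with the share was −0.61 and Pearson's r on the log2 level was −0.43.

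The copies were mostly pseudogenes. *Rps6*, the S6 kinase substrate of the small subunit, had 11 near-identical annotated genes (at least 95% identity over at least 80% of the coding sequence), all pseudogenes, and a mean of 5.31 CPM per kb. *Rpl4*, a protein of the exit tunnel, had 20.2% of its stretches shared with another gene and a mean of 648 CPM per kb. At least 1 near-identical gene was annotated for 74 of the 78 members. Whether reads that fit several places were dropped is not given in the sources used here, and the part of shared sequence in the low levels was not tested. Levels of different members are therefore uncertain. The comparison of genotypes sets each gene against itself, but the part of shared sequence in that comparison was not tested either.

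**Figure D2:**
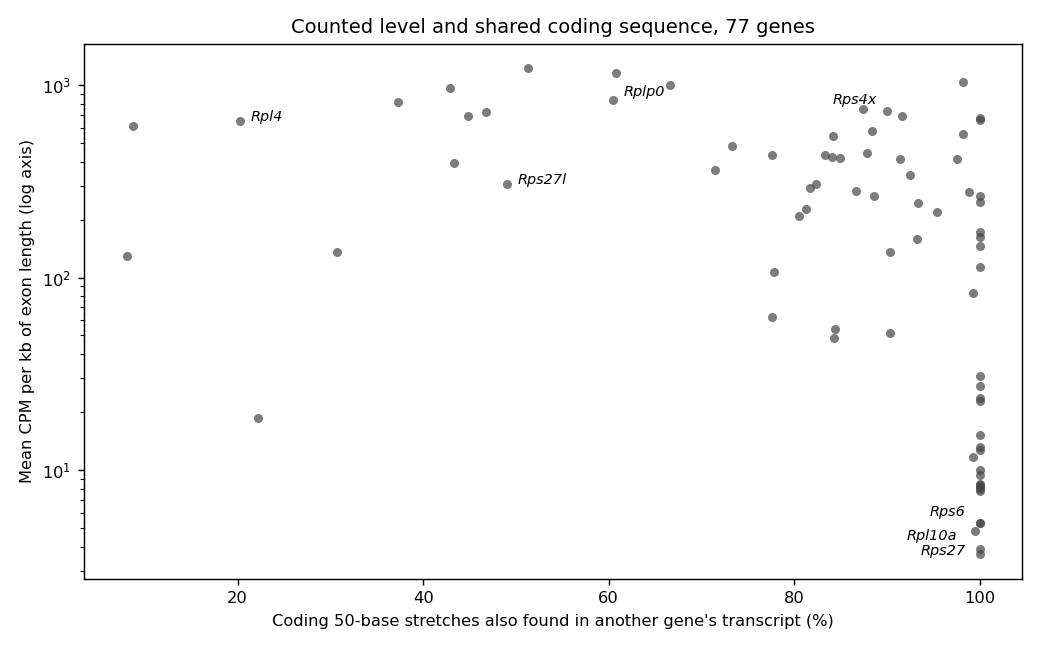
Mean level over 6 libraries (CPM per kb of exon length, log axis) against the percentage of 50-base coding stretches that also occur in a transcript of another annotated gene; each point is 1 of 77 ribosomal protein genes. The 26 genes with all stretches shared reach down to 3.65 CPM per kb, and *Rpl4*, with 20.2% shared, stands at 648.

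*Rps27* and its paralogue *Rps27l* show the contrast. Both encode versions of the same small subunit protein, and their coding sequences are equally long, 255 bases, and differ at 61 of them, which are in capitals (76.1% identity; the longest run without a difference is 11 bases). The encoded proteins differ at 3 of 84 residues. The coding sequences are from GENCODE M21 on GRCm38.
*Rps27*, gene at chr3:90212667-90213648, minus strand: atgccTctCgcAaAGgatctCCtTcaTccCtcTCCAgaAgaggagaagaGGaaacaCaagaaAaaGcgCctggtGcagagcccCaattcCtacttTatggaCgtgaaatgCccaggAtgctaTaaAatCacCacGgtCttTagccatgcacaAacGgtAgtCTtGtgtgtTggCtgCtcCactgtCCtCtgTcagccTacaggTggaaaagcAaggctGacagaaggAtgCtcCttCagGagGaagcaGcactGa
*Rps27l*, gene at chr9:66944624-66949522, plus strand: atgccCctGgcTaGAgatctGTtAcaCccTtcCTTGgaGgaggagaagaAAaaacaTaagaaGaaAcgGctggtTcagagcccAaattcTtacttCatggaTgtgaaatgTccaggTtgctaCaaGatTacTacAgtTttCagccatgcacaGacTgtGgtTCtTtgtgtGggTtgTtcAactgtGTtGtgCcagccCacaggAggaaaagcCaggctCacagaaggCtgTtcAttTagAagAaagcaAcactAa

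*Rps27* shared all of its 206 stretches with other genes, 8 of them pseudogenes, and *Rps27l* shared 49.0%. *Rps27* counted 49 to 77 tags per library, or 0.892, 1.68 and 1.43 CPM in the WT libraries (replicates 1, 3 and 4 in turn) and 1.64, 1.18 and 1.48 CPM in those of the mutants (replicates 1, 2 and 3 in turn). *Rps27l* counted 134, 140 and 134 CPM in WT and 157, 147 and 138 CPM in mutant libraries. The order of these levels is as measured, and may not be the order of the mRNAs in the tissue.

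Between genotypes, none of the 79 members passed the test used here. The paper's own edgeR analysis, by contrast, has *Rps16* among its genes lower in mutant hearts. With edgeR's quasi-likelihood test, a gene was called at p under 0.01 and an adjusted p under 0.1 (Benjamini-Hochberg over 12955 genes tested, the 79 members included), and 0 of 79 members were called, against 4.64% of all genes tested. By direction, 2.8% of all genes were called higher and 1.84% lower in mutant hearts. At an unadjusted p under 0.05, 9 members were lower and 0 were higher (11.4% lower), against 7.85% of all genes lower and 8.7% higher. Other tools gave 2 members called lower with DESeq2 (against 3.46% of all genes), 1 with edgeR's exact test (2.46%) and 0 with limma (1.79%), and none gave a member called higher.

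The estimates were small and mostly below 0. The log2 fold change (mutant against WT) ran from −0.47 for *Rps16* to 0.18 for *Rpl10a*, with a median of −0.04 against 0.00 for all genes tested (−9.7e-07), and 56 of 79 members (70.9%) lay below 0 against 50% of all genes tested. Without WT replicate 3, the median was −0.01 (−0.0085) and 41 of 79 (51.9%) lay below 0, against 50.2% of all genes. The 95% interval lay wholly within a 1.5-fold change either way for 76 members and within a 2-fold change for all 79. The 3 members whose interval passed 1.5-fold were *Rps16*, *Rpl10a* and *Rps27*, each with a mean under 50 CPM. Of the 57 members with at least 50 CPM, 46 lay below 0 with a median of −0.05 (33 and −0.01 without WT replicate 3). Of the 22 members under 50 CPM, 10 lay below 0 with a median of 0.03 (8 and 0.08 without WT replicate 3), and their median SE was 0.15 against 0.07 for the better covered members.

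Other short mRNAs also lay mostly below 0. Among 279 other genes with an exon length under 1000 bases and a mean of at least 50 CPM, the median log2 fold change was −0.10 and 223 (79.9%) lay below 0. Among the 40 members of the same length and level, the median was −0.05 and 32 (80%) lay below 0. With edgeR, 27 of the other genes were called lower and 3 higher, and 0 of the members, against 1.84% and 2.8% of all genes. At an unadjusted p under 0.05, 85 of the other genes (30.5%) were lower and 9 higher. Of the members, 6 (15%) were lower and 0 higher, against 7.85% and 8.7% of all genes. Without WT replicate 3, 213 of the other genes (76.3%) and 23 of the members (57.5%) lay below 0, with medians of −0.09 and −0.02. Then 7 of the other genes were called lower and 4 higher, and 0 of the members. This set was chosen after the values were seen, and the part of mRNA length in the members' values was not tested. In whole tissue, fewer cells of a type and less RNA per cell cannot be told apart. The 5 mural cell markers summed to 551 to 591 CPM in WT and 402 to 503 CPM in mutant libraries, with 3 of 5 called lower, and the 6 endothelial markers to 1029 to 1176 and 923 to 1045 CPM, with 2 of 6 called lower (0 without WT replicate 3, with 3 lower at an unadjusted p under 0.05). The 7 fibroblast markers summed to 1909 to 2202 CPM in WT and 2029 to 2269.5 CPM in mutant libraries, with 1 of 7 called higher. The part of these markers in the members' values was not tested.

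**Figure D3:**
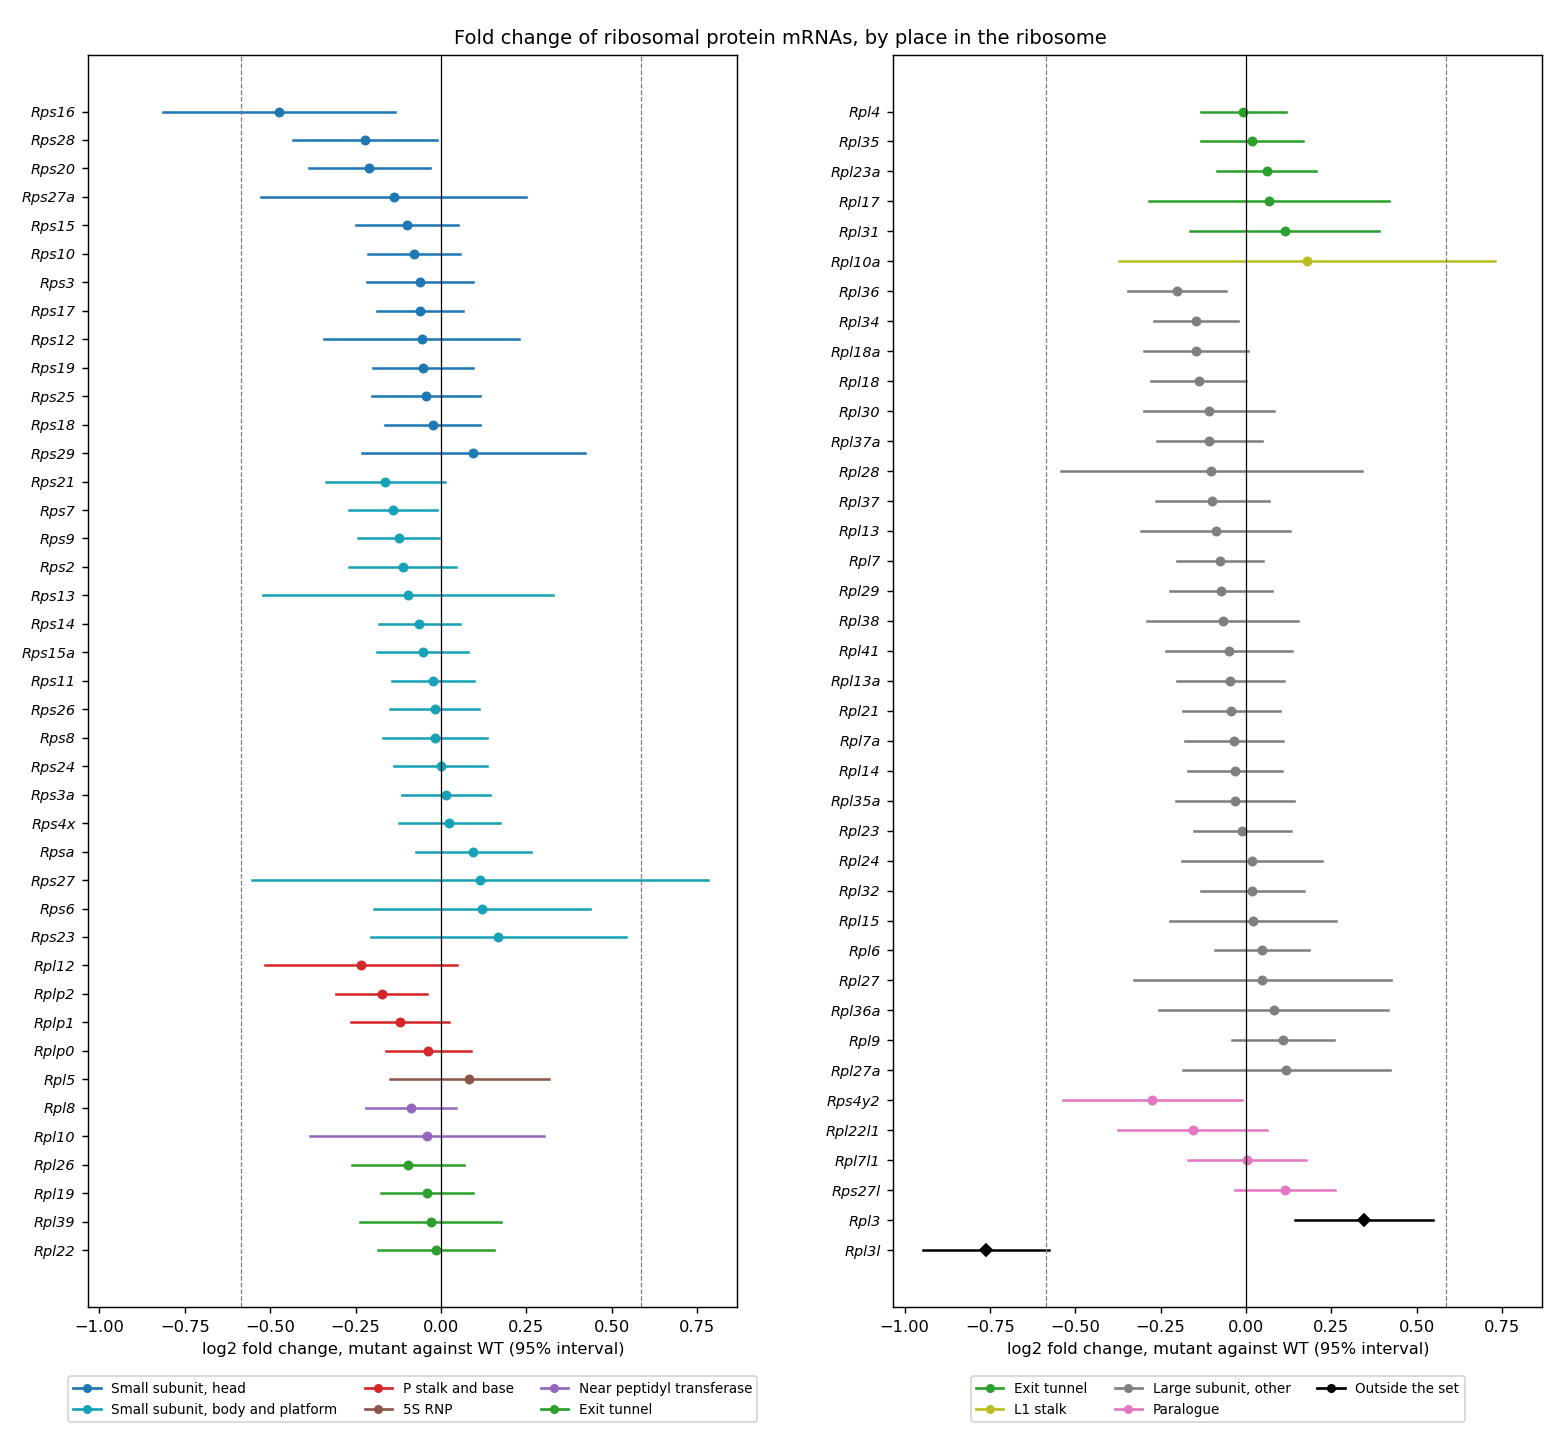
Log2 fold change of 78 of the 79 ribosomal protein mRNAs, mutant against WT hearts (point, with a 95% interval derived from edgeR's test; n = 3 each), grouped by place in the ribosome, with *Rpl3* and *Rpl3l* added. Dashed lines mark a 1.5-fold change, and diamonds are genes that were called. Of the 78 members shown none was called and 55 lie left of 0.

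Of the small subunit mRNAs, 24 of 31 (77.4%) lay below 0, against 50% of all genes tested, with a median log2 fold change of −0.06. At an unadjusted p under 0.05, 5 were lower (16.1%, against 7.85% of all genes) and 0 higher (against 8.7%). When WT replicate 3 was left out, 19 lay below 0 with a median of −0.02, and 1 was lower at such a p, against 7.73% of all genes. The head of the subunit, which holds the mRNA at the decoding site with the body, had 13 of its 14 members below 0 with a median of −0.06 (11 and −0.03 without WT replicate 3). *Rps16* (chr7:28350689-28352698), a head protein whose tail reaches the decoding site, had 20.83, 19.30 and 26.80 CPM in the WT libraries (replicates 1, 3 and 4 in turn) and 14.98, 13.97 and 19.29 CPM in those of the mutants (replicates 1, 2 and 3 in turn). The WT values lay above the mutant ones, but the lowest WT and the highest mutant value were 19.30 and 19.29 CPM. The log2 fold change was −0.47 (SE 0.15, 95% interval −0.81 to −0.14), with an adjusted p of 0.154 in edgeR's quasi-likelihood test. All stretches of its coding sequence were shared with 4 pseudogenes. It was called with DESeq2 (adjusted p = 0.0453), with edgeR's exact test (adjusted p = 0.078) and without mutant replicate 3 (−0.62, adjusted p = 0.091 in edgeR's quasi-likelihood test). The paper also has *Rps16* among its genes lower in mutant hearts.

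*Rps20* and *Rps28*, also of the head, were the next lowest among the small subunit genes. *Rps20* had 206, 244 and 225 CPM in WT and 188, 211 and 184 CPM in mutant libraries, so mutant replicate 2 lay above WT replicate 1. Its log2 fold change was −0.21 (SE 0.08, adjusted p = 0.225 in edgeR). *Rps28* had 76.8, 95.8 and 89.7 CPM in WT and 69.4, 81.8 and 73.4 CPM in mutant libraries, again with an overlap, and a log2 fold change of −0.22 (SE 0.09, adjusted p = 0.273). *Rps7* and *Rps9*, of the body and platform, did not overlap: *Rps7* stood at 218 to 223 CPM in WT against 194 to 210 CPM in mutant hearts (−0.14, SE 0.06, adjusted p = 0.257). *Rps9*, a protein of the decoding region, stood at 531.7 to 564.4 and 503.8 to 510.2 CPM (−0.12, SE 0.05, adjusted p = 0.278). These 2 genes were named after their values were seen.

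Some small subunit mRNAs leaned the other way. *Rpsa*, which is both a ribosomal protein and, in another form, the laminin receptor, had 550, 625 and 536 CPM in WT and 583, 660 and 585 CPM in mutant libraries (0.10, 95% interval −0.07 to 0.26). *Rps23* of the decoding centre and *Rps6* had estimates of 0.17 (95% interval −0.21 to 0.54) and 0.12 (−0.20 to 0.44), at means of 4.68 and 7.40 CPM. *Rps4x* had 610 to 688 CPM in WT against 640 to 709 CPM in mutant hearts (0.02). *Rps14*, the highest per kb, had 725 to 761 and 694 to 734 CPM (−0.06, SE 0.05). None of these differences passed the test, and the WT and mutant values overlapped for each of these genes. Without WT replicate 3, the estimates of *Rpsa*, *Rps23* and *Rps6* were 0.16, 0.29 and 0.24, none was called, and their values no longer overlapped.

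Of the large subunit mRNAs, 30 of 44 (68.2%) lay below 0, against 50% of all genes tested, with a median of −0.04. At an unadjusted p under 0.05, 3 were lower (6.82%, against 7.85% of all genes) and 0 higher (against 8.7%). With WT replicate 3 left out, 19 of 44 lay below 0 and the median turned to 0.01. At such a p, 2 were then higher and 2 lower, against 8.29% and 7.73% of all genes. The P stalk, which recruits the factors of translation to the ribosome, had all 4 of its genes below 0, with WT replicate 3 and without it. *Rplp0*, the protein at the base of the stalk, had 1139, 1215 and 1166 CPM in WT and 1094, 1187 and 1151 CPM in mutant libraries (−0.04, SE 0.06). *Rplp1* had 531, 593 and 551 CPM in WT and 508, 545 and 490 CPM in mutant libraries (−0.12, SE 0.06, adjusted p = 0.395 in edgeR). *Rplp2*, the partner of *Rplp1*, had 465, 495 and 501 CPM in WT and 417, 423 and 454 CPM in mutant libraries, without overlap. Its log2 fold change was −0.17 (SE 0.06, 95% interval −0.31 to −0.04, adjusted p = 0.18 in edgeR). *Rpl12*, which lies at the base of the stalk beside the factor site, had 8.75 to 9.64 CPM in WT and 7.14 to 8.51 CPM in mutant libraries (−0.23, SE 0.13, adjusted p = 0.395).

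*Rpl36* (chr17:56610094-56614246), a peripheral protein of the large subunit, had the lowest p of the members. It had 432, 460 and 466 CPM in WT and 371, 390 and 420 CPM in mutant libraries, and all WT values lay above all mutant values. Its log2 fold change was −0.20 (SE 0.06, 95% interval −0.34 to −0.06), with an adjusted p of 0.146 in edgeR's quasi-likelihood test, and it was the second member called with DESeq2 (adjusted p = 0.0628). *Rpl34* had 249, 266 and 254 CPM in WT and 231, 235 and 230 CPM in mutant libraries (−0.15, SE 0.06, adjusted p = 0.223). Both were named after their values were seen. In all, the values of 9 members did not overlap between genotypes with the mutant lower, against 10.5% of all genes tested, and those of 0 members with the mutant higher, against 11.4%; 9 of 79 is 11.4%, near the background. These 9 were *Rps16*, *Rps7*, *Rps9*, *Rplp2*, *Rpl12*, *Rpl36*, *Rpl34*, *Rpl18* and *Rps4y2*. They were also the 9 members that did not overlap with the mutant lower when WT replicate 3 was left out, against 16.8% of all genes, and 11 members then did not overlap with the mutant higher, against 17.1%.

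The genes of the working parts of the large subunit had estimates of both signs. *Rpl4*, which lines the exit tunnel of the growing chain, had 776, 785 and 732 CPM in WT and 749, 791 and 741 CPM in mutant libraries (−0.01, 95% interval −0.13 to 0.12). Of the others at the tunnel, *Rpl26* had 156 to 186 CPM in WT and 152 to 165 CPM in mutant libraries (−0.10, SE 0.07) and *Rpl39* had 162 to 180 and 141 to 178 CPM (−0.03, SE 0.09). The 9 exit tunnel genes had a median of −0.01, with 5 below 0 (0.03 and 2 without WT replicate 3). *Rpl10*, which sits near the peptidyl transferase centre, had 5.81 to 7.84 CPM in WT against 6.22 to 7.36 CPM in mutant hearts (−0.04). *Rpl5*, which binds the 5S rRNA and in its free form restrains Mdm2, had 18.00, 19.03 and 18.74 CPM in WT and 22.48, 18.65 and 17.94 CPM in mutant libraries (0.08, 95% interval −0.15 to 0.32). *Rpl10a* of the L1 stalk had 2.89, 3.52 and 2.01 CPM in WT and 3.65, 3.21 and 2.66 CPM in mutant libraries, with a wide interval of −0.37 to 0.73 around 0.18. *Rpl27a* had an estimate of 0.12 (SE 0.14) and *Rpl27* of 0.05 (SE 0.17).

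The balance between paralogues was compared as the log2 ratio of their CPM in each library, with an exact two-sided permutation test over samples, which with 3 against 3 cannot go below p = 0.1. *Rpl22l1*, the paralogue that can replace *Rpl22*, stood at a log2 ratio to *Rpl22* of −2.98 ± 0.124 in WT and −3.12 ± 0.0857 in mutant hearts (mean ± SD, n = 3 each; exact permutation p = 0.3). *Rps27l* to *Rps27* gave 6.72 ± 0.450 and 6.69 ± 0.238 (exact permutation p = 0.9). *Rpl7l1* to *Rpl7* gave −2.97 ± 0.111 and −2.89 ± 0.0888 (exact permutation p = 0.4). *Rps4y2* to *Rps4x* gave −5.59 ± 0.0204 and −5.90 ± 0.155, without overlap, at the smallest p the design allows (exact permutation p = 0.1). Adjusted over the 4 pairs, the lowest p was 0.4.

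*Rps4y2* is named *Rps4l* in RefSeq, where it is a transcribed pseudogene (chr6:148354656-148355596). It had 12.9, 14.2 and 13.7 CPM in WT and 9.71, 12.3 and 11.7 CPM in mutant libraries (−0.27, SE 0.12, adjusted p = 0.278 in edgeR), and no protein can be inferred from it. The paralogues' own log2 fold changes were −0.16 for *Rpl22l1*, 0.11 for *Rps27l* and 0.00 for *Rpl7l1* (0.0028), and none was called.

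The libraries themselves differed in these mRNAs as much as the genotypes did. Summed over the 79 members, CPM were 18735, 20354 and 19021 in the WT libraries (replicates 1, 3 and 4 in turn) and 18303, 19384 and 18195 in those of the mutants (replicates 1, 2 and 3 in turn). The means were 19370 ± 864 in WT and 18627 ± 657 in mutant hearts (SD, n = 3 each), a ratio of 0.962. Mutant replicate 2 lay above WT replicates 1 and 4. The members held 1.78% to 2.03% of all tags of a library.

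WT replicate 3 had the highest value of 52 of the 79 members (65.8%), although it had the highest value of 15.9% of all genes tested, and it had the lowest value of none. Mutant replicate 3 had the lowest value of 28 members. The median log2 deviation of the members from their own mean was 0.11 in WT replicate 3 and −0.07 in mutant replicate 3, with the other 4 libraries between −0.03 and 0.03. Without WT replicate 3, the summed ratio was 0.987 on the same scale and 0.985 with the libraries scaled again, and 17 members changed sign, *Rpl7l1* to below 0 and the others to above 0. With edgeR 3 members were then lower and 2 higher at an unadjusted p under 0.05, against 7.73% and 8.29% of all genes, and none was called, against 3.13%. The 9 members whose values then did not overlap with the mutant lower had log2 fold changes from −0.57 (*Rps16*, adjusted p = 0.136 in edgeR) to −0.11 (*Rpl18*). The 11 members that then did not overlap with the mutant higher had log2 fold changes from 0.08 (*Rpl35*) to 0.29 (*Rps23*). These counts compare with 16.8% of all genes lower and 17.1% higher without overlap. The 279 other short genes had a median deviation of 0.08 in WT replicate 3. WT replicate 3 was also the shallowest library.

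**Figure D4:**
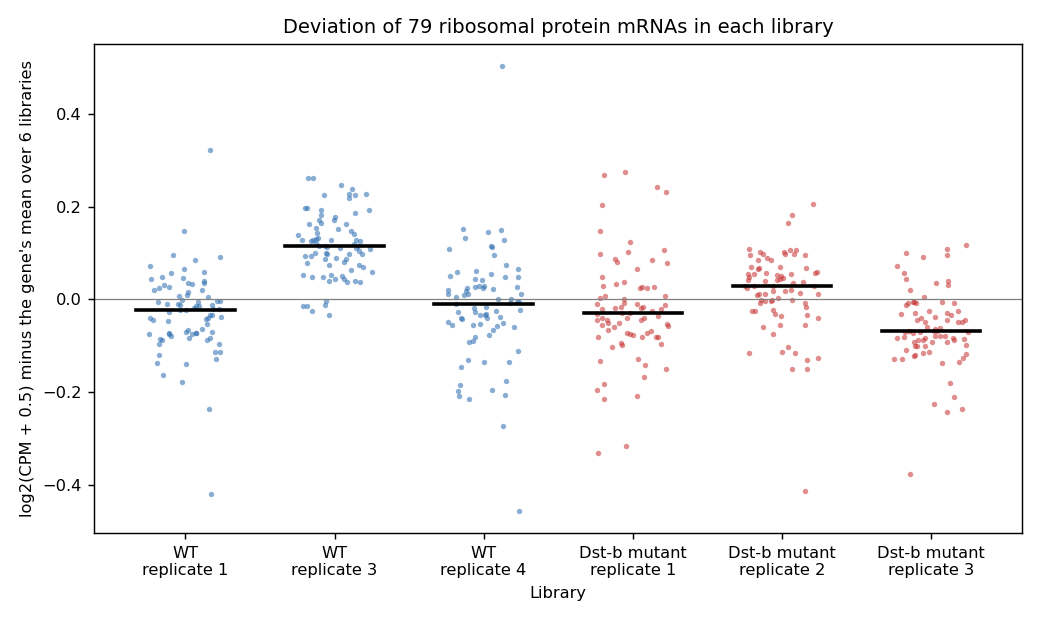
Deviation of each of 79 ribosomal protein mRNAs from its own mean over 6 libraries, on log2(CPM + 0.5), in WT (blue) and *Dst-b* mutant (red) libraries; black bars are medians. WT replicate 3 lies highest, with a median of 0.11, and mutant replicate 3 lowest, with −0.07.

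The members moved together from library to library. With the genotype means removed, the median Pearson correlation between pairs of the 57 members with at least 50 CPM was 0.60 over the 6 libraries, and 89.4% of the 1596 pairs were above 0. Over all 3351 genes with at least 50 CPM, the median was 0.034. The 22 members under 50 CPM had a median of 0.45. Without WT replicate 3, the median was 0.49 for the better covered members, with 78% of pairs above 0, 0.038 for all genes with at least 50 CPM and 0.11 for the members under 50 CPM. These correlations are descriptions over 6 or 5 shared libraries with few degrees of freedom.

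*Rpl3* and *Rpl3l*, outside the rule, were the ribosomal protein genes called with edgeR's quasi-likelihood test. *Rpl3* encodes a protein near the peptidyl transferase centre and *Rpl3l* its paralogue of striated muscle. *Rpl3l* had 453, 441 and 427 CPM in WT and 249, 235 and 295 CPM in mutant libraries (−0.76, SE 0.08, adjusted p = 0.00162 in edgeR). *Rpl3* had 96.6, 88.9 and 83.1 CPM in WT and 122, 120 and 99.7 CPM in mutant libraries (0.35, SE 0.09, adjusted p = 0.0848), a call that was lost without any 1 of the libraries except mutant replicate 3 (adjusted p up to 0.324). The log2 ratio of *Rpl3l* to *Rpl3* was 2.30 ± 0.0678 in WT and 1.19 ± 0.327 in mutant hearts. *Fau* (−0.23), *Rpl36al* (−0.10) and *Gnb2l1* (−0.02), which encodes the scaffold Rack1, also lay outside the rule and were not called.

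Other parts of the translation machinery are given for comparison, from lists chosen from general knowledge. Of 56 ribosome assembly genes tested, 5 were called higher and 0 lower with edgeR, against 2.8% and 1.84% of all genes. At an unadjusted p under 0.05, 17 were higher and 1 lower, against 8.7% and 7.85% of all genes. Of the 56, 9 lay below 0, with a median log2 fold change of 0.14 against −0.04 for the ribosomal proteins. DESeq2 called 8 higher and 1 lower, edgeR's exact test and limma each called 6 higher and 0 lower, and 2 were called higher without WT replicate 3. *Rrp12*, which exports and matures the subunits, had the lowest p of them (26.2 ± 2.12 CPM in WT against 39.1 ± 1.67 CPM in mutant hearts, n = 3 each; 0.58, SE 0.08, adjusted p = 0.00744 in edgeR). *Gtpbp4*, *Ddx10* and *Ftsj3*, of large subunit or pre-rRNA processing, were called at 0.27, 0.33 and 0.33, and each lost its call without at least 5 of the 6 libraries in turn. Of 16 RNA polymerase I genes, *Polr1e* was called higher (0.54, adjusted p = 0.0323), a call lost without WT replicate 1, WT replicate 3 or mutant replicate 1.

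Of the 28 initiation factor genes tested, *Eif3a*, the scaffold of the initiation complex eIF3, was called higher (0.39, adjusted p = 0.0118) and *Eif1*, which helps to choose the start codon, was called lower (−0.22, adjusted p = 0.0764); *Eif1* lost its call without any 1 of the libraries except WT replicate 1. Of 12 elongation and termination factors, 0 were called in either direction with edgeR, with 1 higher and 0 lower at an unadjusted p under 0.05 and a median of −0.02, the release factor *Gspt1* having the lowest p (a log2 fold change of 0.14). The 13 other TOP mRNAs, which share the pyrimidine start with the ribosomal proteins, had 0 called with edgeR (2 higher and 1 lower at an unadjusted p under 0.05), a median of 0.09 and 1 gene below 0, *Tpt1* (−0.20, adjusted p = 0.14).

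Of 28 mTOR, Myc and TOP regulators, *Myc* was called higher (2.74 ± 0.701 CPM in WT against 5.24 ± 0.422 CPM in mutant hearts; 0.93, adjusted p = 0.0584), a call lost without any 1 library except WT replicate 1. Of 11 genes of the p53 checkpoint that free *Rpl5* can trigger, *Trp53inp1* was called higher (0.59, adjusted p = 0.0323), a call lost without mutant replicate 1. The 11 ribosomal protein chaperones (lowest p for *Ipo7*, with a log2 fold change of 0.19), the 16 ribosome quality control genes (*Nemf*, 0.21) and the 14 core genes of the 20S proteasome (*Psmb3*, −0.12) had 0 called with edgeR, and at an unadjusted p under 0.05 they had 2, 2 and 0 genes higher and none lower. Over these 3 lists, the elongation and termination factors and the other TOP mRNAs, DESeq2 called 2 genes, *Tpt1* lower and *Nemf* higher, and edgeR's exact test and limma called 0. The 76 mitochondrial ribosomal proteins, which build the separate ribosome of mitochondria, had 1 called higher and 2 lower, and 58 lay below 0, with a median of −0.08. At an unadjusted p under 0.05 in edgeR, 1 was higher and 11 were lower, against 8.7% and 7.85% of all genes. Without WT replicate 3, 55 lay below 0 with a median of −0.09, and 0 were called higher and 2 lower. At such a p, 1 was then higher and 10 were lower, against 8.29% and 7.73% of all genes.

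**Figure D5:**
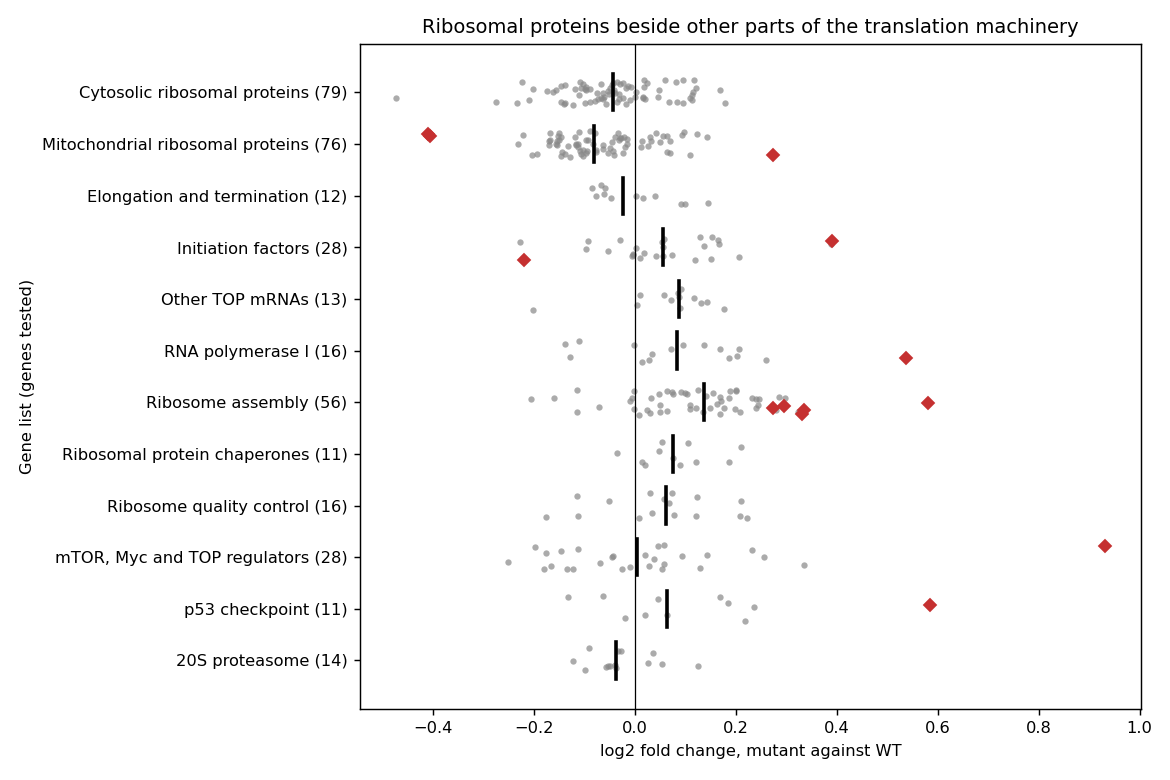
Log2 fold change, mutant against WT hearts, of the genes of 12 lists of the translation machinery, 1 point per gene tested, with the number of genes in brackets and the median as a black bar. Red diamonds are genes called with edgeR. The cytosolic ribosomal proteins have no diamond and a median of −0.04, and the ribosome assembly genes have 5 diamonds and a median of 0.14.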

How the data were processed

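The authors mapped paired-end reads to GRCm38/mm10 with OLego and counted genes with Quantas. The deposited files hold, per library, an estimated count of tags, an RPKM and an exon length for 13003 genes. The sources used here do not say if a tag is a read or a pair, nor how reads that fit several places were treated, and the library kit differs between the labels (NEBNext) and the paper's methods (TruSeq). Estimated counts were rounded to whole numbers; the deposited RPKM, which match the tags, exon length and total, were not tested. Genes reaching 1 CPM in 3 or more libraries were kept, TMM-scaled and tested two-sided with edgeR 4.0.16 in R 4.3.3 (quasi-likelihood, genotype only, Benjamini-Hochberg), at the thresholds of the study's methods (p under 0.01, adjusted p under 0.1). Intervals are 95%. Libraries held 40693854 to 57580110 tags, and 3 mice per genotype limit the precision. The spread between mice (biological coefficient of variation) was 12.3%.

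Coding sequences were compared with Python 3.11.15 and BLAST+ 2.17.0 over GENCODE M21 transcripts, which do not cover pseudogenes outside that annotation; tests were also run on simulated data. The alternatives were other scalings, filters, DESeq2 1.42.0, edgeR's exact test, limma 3.58.1 with a trend, each library left out in turn and the replicate number as a block. The members, lists and roles were chosen with earlier results of these data known. Named members were the 5 largest log2 fold changes each way, the 5 highest and 3 lowest in CPM, paralogues with their parents, and the P stalk genes, *Rpsa* and *Rpl5*; of each other list, called genes (at most 4) or the gene of lowest p were named. The values of 1 member, which stayed in all counts and medians, are not reported here.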

Additional observations from a re-analysis of the deposited data

How the results depend on the processing

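No member was called higher under any of the 18 alternatives. The number called lower was 2 with DESeq2 (*Rps16* and *Rpl36*), 1 with edgeR's exact test (*Rps16*), 0 to 1 when each library was left out in turn (*Rps16* without mutant replicate 3) and 0 in the other alternatives without a block. Of all 12955 genes, 601 were called with all 6 libraries (4.64%). With a library left out, 163 (mutant replicate 1) to 519 (mutant replicate 2) were called in either direction, and 417 without mutant replicate 3. The median log2 fold change of the members ran from −0.07 to −0.01 when a library was left out, and from −0.05 to −0.03 over the scalings; the summed ratio ran from 0.939 to 0.985. Replicate numbers 1 and 3 occur in both genotypes, but same-numbered libraries did not deviate together (r = 0.0072 and −0.049 over 12955 genes). These values cannot tell if same-numbered mice shared a litter or a run, and the labels name no pairing. With the replicate block, WT replicate 4 and mutant replicate 2 each stood alone in a block. The genotype effect of that fit therefore rested on the libraries numbered 1 and 3 only. With this block, 1 member was called lower (*Rps20*, −0.27, adjusted p = 0.0889 in edgeR), the members' median was −0.09, and 966 of all genes were called instead of 601.

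Between 0 and 17 of the members tested changed sign under an alternative, with the highest numbers without WT replicate 3 (17) and without mutant replicate 3 (12), and no member was called where its sign had changed. Of the genes named, the log2 fold change became 0.0072 for *Rpl4* and 0.0026 for *Rpl22* with library totals only, −0.00068 for *Rpl7l1* with scaling factors computed without the members, and −0.029 for *Rpl10a*, −0.056 for *Rpl27a*, −0.0047 for *Rps4x* and −0.0064 for *Rpsa* with the replicate block. Leaving out each library gave −0.043 to 0.011 for *Rpl4*, −0.027 to 0.058 for *Rps4x*, −0.11 to 0.31 for *Rps27*, −0.044 to 0.064 for *Rpl7l1*, −0.065 to 0.049 for *Rpl22*, −0.095 to 0.072 for *Rpl39*, −0.15 to 0.053 for *Rpl10*, −0.012 to 0.37 for *Rpl10a* and −0.025 to 0.15 for *Rpl5*. The causes were not tested. DESeq2 called 1028 of all genes and edgeR's exact test 811. The widest intervals were those of members under 50 CPM, and the part of depth in them was not tested.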
